A study of Mus musculus with 6 samples.

Results

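The genes described here are the 94 nuclear genes, of 32285 genes counted, whose symbols mark them as parts of the mitochondrial respiratory chain. They were chosen by symbol alone: names starting with Ndufa, Ndufb, Ndufc, Ndufs or Ndufv for complex I, Sdha to Sdhd for complex II, names starting with Uqcr together with Cyc1 for complex III, names starting with Cox4 to Cox8 for complex IV, and names starting with Atp5 for complex V. The choice gave 38 complex I genes and 8 further complex I assembly factors (the Ndufaf genes), 4 genes of complex II, 9 of complex III, 18 of complex IV and 17 of complex V. The pseudogene-named Ndufb1-ps was left out. Of the 94 genes, 93 had at least 1 UMI (a unique molecular identifier, which tags 1 captured RNA molecule), and Cox8c had none in any library.

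The chain sits in the inner mitochondrial membrane. Complex I takes electrons from NADH and complex II takes them from succinate, both pass them through ubiquinone to complex III, cytochrome c carries them on to complex IV, and complex IV reduces oxygen. Complexes I, III and IV pump protons, and complex V, the ATP synthase, uses the resulting gradient to make ATP. Most subunits are encoded in the nucleus and made on cytosolic ribosomes, and a small set is encoded in mitochondrial DNA. Complex IV in particular has subunits with paralogues that replace each other in certain tissues. Neurons depend on the chain for most of their ATP, and EGLN2 (also called PHD1) is one of the oxygen-sensing prolyl hydroxylases that mark hypoxia-inducible factors for degradation.

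Nuclei were taken from frozen spinal cord, lumbar part, of C57BL/6 mice at 110 days of age, and their RNA was counted with 10x Genomics 3′ chemistry. Both groups carried SOD1G93A, a mutant human superoxide dismutase transgene that causes motor neuron disease, and they differed in PHD1: 3 libraries were SOD1G93A/PHD1+/+ and 3 were SOD1G93A/PHD1-/-. The comparison asks what loss of PHD1 does in this disease model. No cord without the transgene enters here, and the labels do not say in which cells PHD1 was deleted.

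After filtering, the libraries held 5129 to 8483 nuclei and 12693827 to 31346577 UMIs. Egln2 RNA, the targeted gene, was at 30.2, 18.7 and 16.2 CPM (counts per 1e6 UMIs of the library) in the 3 PHD1+/+ libraries, in order of replicate number, and at 10.0, 9.16 and 10.4 CPM in the 3 PHD1-/- libraries, with no overlap between the groups; 3′ tags may lie outside the deleted part. Replicate 1 of both genotypes stood apart from the other 4 libraries. Its nuclei were shallower (median 1270 and 1302.5 UMIs per nucleus, against 2305 to 2877). They were richer in mitochondrial RNA in the PHD1+/+ library (median 0.333%, against at most 0.148% in replicates 2 and 3). In addition, 86 barcodes (1.30% of the smaller library) were shared between these 2 libraries, against 14 or fewer in any other pair. A shared barcode need not mark a shared nucleus, and whether replicate 1 differs in barcode list, chemistry or run was not tested. Nuclei were grouped into classes, each called by the cell type its marker genes resemble, and every marker fixed for a class stood above the mean of the other classes. The classes were named by these same markers, so this is no separate check of the names. Some markers were near 0: Slc17a7 averaged 0.19 CPM in excitatory neurons. Cd163 in border macrophages and Acta2 in mural cells had 0 CPM in their lowest library. The classes ran from 13056 oligodendrocyte-like nuclei to 104 cholinergic neuron-like nuclei, and 1053 nuclei in clusters with a high mitochondrial share, 816 of them from PHD1+/+ replicate 1, were left unnamed. A further 5323 nuclei were neuron-like with no clear transmitter and are called unresolved neurons. The oligodendrocyte class includes 1 cluster of 2344 nuclei that had 5 oligodendrocyte markers detected but, among its 10 leading genes, none of them and 1 marker of newly formed oligodendrocytes (Enpp6), so results that rest on that class are also given without it.

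In all nuclei together, members made up 15167, 4508 and 4882 CPM with PHD1 intact and 8420, 4402 and 4118 CPM without it, again in order of replicate number, as in every such set of 3 values that follows. Replicate 1 was thus high in both genotypes, while the other 4 libraries lay close together. Complex I genes summed to 1552 to 1834 CPM in replicates 2 and 3 and to 5523 and 3099 CPM in replicate 1 of PHD1+/+ and PHD1-/-. For complex IV the same values were 813 to 1017 CPM and 3999 and 2046 CPM. The 4 genes of complex II, which also belongs to the citric acid cycle, moved less, from 173 to 191 CPM in replicates 2 and 3 to 349 and 275 CPM in replicate 1.

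**Figure D1:**
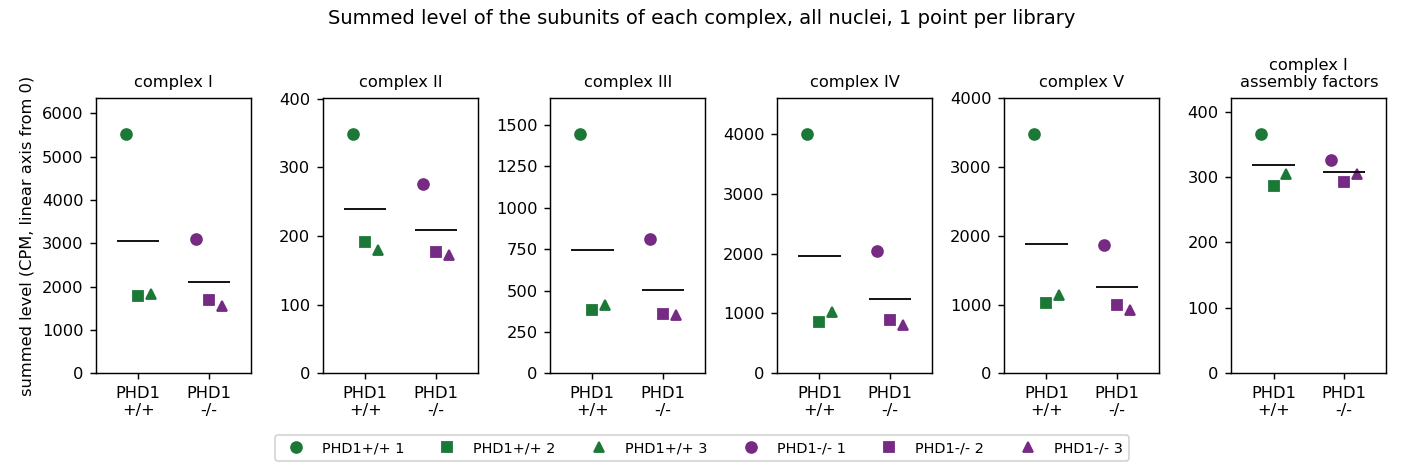
Summed level of the subunits of each complex in all nuclei (CPM, linear axes from 0), with 1 point per library, coloured by genotype and shaped by replicate, and a line at each group mean (n = 3). Replicate 1 of PHD1+/+ is the highest point in each panel, as in complex IV at 3999 CPM, and the assembly factors (286 to 366 CPM) vary least.

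Within complex I, Ndufa4 had the most UMIs (mean 206 CPM over the 6 libraries) and Ndufa4l2 the fewest (3.46 CPM); both are named for complex I, but their proteins are found in complex IV. Sdha, the flavoprotein that oxidises succinate, led complex II at 98.7 CPM, and Sdhd, a membrane anchor, was lowest at 18.3 CPM. In complex III the hinge protein gene Uqcrh led at 114 CPM and the Rieske iron-sulphur protein gene Uqcrfs1 was lowest at 26.7 CPM. In complex IV, Cox4i1 led at 291 CPM, the highest of all members. In complex V, Atp5l of the membrane part led at 141 CPM, and Atp5g2, one of the genes for the c ring, was lowest at 46.8 CPM. These are shares of 3′ tags, not divided by gene length, so they rank genes by tags and not by RNA molecules per length.

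The height of replicate 1 was not even across members. Cox6a1, a complex IV subunit, stood at 366, 39.2 and 48.7 CPM in PHD1+/+ and at 188, 41.1 and 41.7 CPM in PHD1-/-, a ratio of 6.49 between the mean of replicate 1 and that of the others. The ratio was 5.60 for Cox5b, 5.38 for Ndufa3 and 4.84 for Uqcr11, all small subunits. By contrast Ndufs1, the largest subunit of the NADH-oxidising arm, stood at 88.3, 97.2 and 92.1 CPM and at 102, 98.0 and 96.9 CPM, a ratio of 0.993. The ratio was 0.958 for the core subunit Uqcrc2, 0.905 for Ndufaf6 and 0.641 for Ndufaf5. The RNA encoded in mitochondrial DNA (13 genes) and the cytosolic ribosomal protein genes (96 genes) were also high in replicate 1, by ratios of 2.77 and 2.49, beside 2.63 for the members together; whether these share a source was not tested.

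Members with short genes showed most of that height. The 32 members whose genes span under 5 kb had a median ratio of replicate 1 to the others of 3.29, the 48 of 5 to 20 kb one of 2.65, and the 14 over 20 kb one of 1.28. Over 92 members the ratio fell with gene span (Spearman's rho -0.603), and over 19028 genes of all kinds it did so less steeply (rho -0.413). These correlations are across genes, which share libraries and depth and are not independent replicates, so they are given as a description.

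Promoter sequence is shown for 4 members, a pair that holds a motif known from promoters of respiratory genes and a pair of paralogues, Cox7b and Cox7b2, whose shares differ between classes in the results that follow. Promoters came from RefSeq on GRCm38.p6 and ran from 250 bases before to 50 bases after the start; 75 of the 94 members had at least 1 entry, and a gene, member or not, was counted if any of its entries matched. Both strands were searched. GCGCATGCG, letters known from binding sites of NRF1, a regulator of many respiratory genes, occurred in 10 of the 75 (13.3%): Atp5g2, Atp5k, Atp5l, Cox6a1, Ndufa8, Ndufa11, Ndufaf4, Ndufaf5, Uqcr11 and Uqcrc1. Over all 27025 genes with a promoter of that length it occurred in 527 (1.95%). The looser GCGCANGCG, which includes every match of the first, was in 22 members (29.3%) and in 1901 of all genes (7.03%). AAGATGGCG, letters of a YY1 site, was in 8 members (10.7%: Atp5j, Atp5j2, Ndufa9, Ndufaf8, Ndufc1, Ndufs4, Ndufs6 and Ndufs7) and in 443 genes (1.64%). CCGGAAGT, letters of an ETS-type site, was in 5 members (6.67%: Atp5h, Cox8a, Ndufs3, Uqcr11 and Uqcrh) and 1164 genes (4.31%). The median member promoter held 15 CpG dinucleotides and 57.2% G and C before the start, against 6 and 52.0% over all genes in the table. A match is a run of letters and was not tested for binding. The bases before the start are written 5′ to 3′ on the gene's strand. Capitals mark GCGCATGCG, which overlaps its own reverse complement in both promoters that hold it, and begins 113 bases before the start of Ndufaf4 (chr4:24897933-24898082, plus strand) and 60 bases before that of Ndufa11 (chr17:56717690-56717761, plus strand). Cox7b (chrX:106015550-106015699, plus strand) and Cox7b2 (chr5:71548206-71548355, minus strand) hold no match in these windows.
Ndufaf4: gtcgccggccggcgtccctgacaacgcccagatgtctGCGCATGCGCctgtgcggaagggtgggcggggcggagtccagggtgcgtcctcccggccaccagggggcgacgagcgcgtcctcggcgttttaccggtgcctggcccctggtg
Ndufa11: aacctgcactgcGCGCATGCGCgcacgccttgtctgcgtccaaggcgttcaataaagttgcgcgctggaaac
Cox7b: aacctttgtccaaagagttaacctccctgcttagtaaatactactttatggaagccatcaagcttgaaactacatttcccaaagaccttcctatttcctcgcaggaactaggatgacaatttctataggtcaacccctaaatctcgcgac
Cox7b2: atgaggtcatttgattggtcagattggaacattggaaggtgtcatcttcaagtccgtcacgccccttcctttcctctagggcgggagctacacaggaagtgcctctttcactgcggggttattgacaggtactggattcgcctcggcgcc

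Neurons held a smaller share of respiratory chain RNA than glia. UMIs were summed per library and class, and the mean of the excitatory and inhibitory neuron-like sums was set against the mean of the astrocyte-, oligodendrocyte-, oligodendrocyte precursor- (OPC) and microglia-like sums, with the library as a block. Of the 88 members that passed the filter on low counts, 74 were lower in neurons, 6 were higher, and 8 did not pass the test (edgeR's quasi-likelihood test, Benjamini-Hochberg adjusted p under 0.05 over all genes). The background was large: 75.0% of the 10777 genes tested were called, 38.3% lower and 36.8% higher. The median member difference was -0.54 on the log2 scale, and the median of all genes was -0.04. Neuronal nuclei were also deeper, at a median of 3769.5 (excitatory) and 5715 (inhibitory) UMIs per nucleus. The medians were 1971 in astrocytes, 1403.5 in oligodendrocytes, 2048 in OPCs and 1194 in microglia. The part of depth and of free RNA in the difference was not tested.

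The shift ran through all 5 complexes, least in complex II. In complex V all 17 genes were lower in neurons (median log2 difference -0.60). In complex I 34 of 38 were lower and 2 higher (median -0.56), in complex III 7 of 9 were lower (-0.62), in complex IV 11 of the 13 tested were lower (-0.61), and in complex II 2 of 4 were lower (-0.19). Within complex I, all 6 genes of the quinone-reducing arm and 18 of 19 of the membrane arm were lower, with 7 of 10 in the NADH-oxidising arm. Genes outside the chain moved too: all 11 tested mitochondrially encoded subunits (median -0.75) and 84 of 91 ribosomal protein genes (-0.79) were lower in neurons, while of 13 citric acid cycle genes 4 were lower and 1 higher, and of 25 tested assembly factors outside the rule 11 were lower and 9 higher. Of 7 carrier and electron entry genes 3 were lower and 1 higher, and of 8 regulators of mitochondrial gene expression 3 were lower and 2 higher.

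Atp5g2 gave the smallest p. Its level was 34.8, 24.1 and 27.2 CPM in PHD1+/+ and 28.8, 27.9 and 22.2 CPM in PHD1-/- inhibitory neurons. In microglia the same libraries held 128, 70.9 and 67.1 CPM and 107, 104 and 81.8 CPM of Atp5g2. The microglial values lay above the neuronal ones in every library, and the difference between neurons and glia was -1.11 (log2, SE 0.09, edgeR's quasi-likelihood test, adjusted p = 1.56e-18).

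Atp5e, the epsilon subunit of the ATP synthase head, followed. Inhibitory neurons held 68.4, 28.5 and 29.5 CPM of Atp5e in PHD1+/+ and 37.3, 26.2 and 23.6 CPM in PHD1-/-. Oligodendrocytes held 171, 55.4 and 77.3 CPM and 88.8, 56.9 and 58.1 CPM, higher in each library (log2 difference of neurons from glia -0.99, SE 0.08). The other members with the 10 smallest p values were Uqcr11 (-0.92), Ndufb11 (-0.88), Atp5g3 (-0.83), Ndufa7 (-0.83), Ndufb4 (-0.81), Cox5b (-0.81), Ndufa2 (-0.76) and Atp5j (-0.71). They are small subunits of complexes I, III, IV and V. The lowest values of all were those of 2 paralogues with few tags in neurons, Cox6b2 (-1.56, SE 0.21) and Ndufa4l2 (-1.45, SE 0.62).

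The 6 members that were higher in neurons were 4 assembly factors and 2 subunits of complex I. Ndufaf5, which modifies Ndufs7 during assembly, stood at 38.1, 51.1 and 58.3 CPM in PHD1+/+ and 23.9, 52.5 and 53.9 CPM in PHD1-/- inhibitory neurons. In oligodendrocytes it stood at 20.9, 22.8 and 26.4 CPM and 17.7, 23.3 and 19.8 CPM. All 6 libraries had more Ndufaf5 in inhibitory neurons than in oligodendrocytes, and it was higher in neurons than in glia by 1.11 (log2, SE 0.12, edgeR's quasi-likelihood test, adjusted p = 1.29e-13). Ndufaf6 (0.64, SE 0.10), Ndufaf7 (0.54, SE 0.08), Ndufs4 (0.25, SE 0.07), Ndufaf4 (0.20, SE 0.09) and Ndufa10 (0.20, SE 0.08) were the others. The remaining assembly factors tested, Ndufaf2 (-0.25), Ndufaf3 (-0.33) and Ndufaf8 (-0.52), were lower in neurons.

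The 8 members that did not pass the test were Cox7b (-0.17, SE 0.08), Sdhd (-0.16, SE 0.14), Sdhb (-0.10, SE 0.09), Ndufv2 (-0.07, SE 0.08), Uqcrc2 (-0.06, SE 0.08), Ndufs1 (0.02, SE 0.07), Uqcrc1 (0.08, SE 0.09) and Cox4i2. They include both core subunits of complex III and the 2 succinate dehydrogenase genes Sdhb and Sdhd. With replicates 2 and 3 alone, 65 members were lower and 7 higher in neurons, and leaving out any 1 library gave 74 to 78 calls. Unresolved neurons had been left out. Counted as a further neuron class, they gave 78 members lower and 5 higher (median -0.68, all genes -0.17), and Ndufaf4 no longer passed the test (0.13, adjusted p = 0.127 by edgeR's quasi-likelihood test). Without the oligodendrocyte cluster that has Enpp6 among its leading genes, 75 were lower and 6 higher.

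The difference between neurons and glia also went with gene span. Members under 5 kb had a median log2 difference of -0.68 with none of 28 tested above 0, those of 5 to 20 kb -0.46 with 4 of 47 above 0, and those over 20 kb -0.07 with 5 of 13 above 0. Over the 88 members Spearman's rho between span and difference was 0.588 (Pearson's r with log10 span 0.599), and over 10771 genes of all kinds it was 0.316 (0.315). Ndufaf5 (33.0 kb), Ndufaf6 (25.2 kb), Ndufs4 (100 kb) and Ndufa10 (34.9 kb), 4 of the 6 members that were higher in neurons, are long genes. Nuclear libraries can hold tags from introns, whose number grows with gene length; no source used here says how intronic reads were treated, and the part of span in these differences was not tested.

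**Figure D2:**
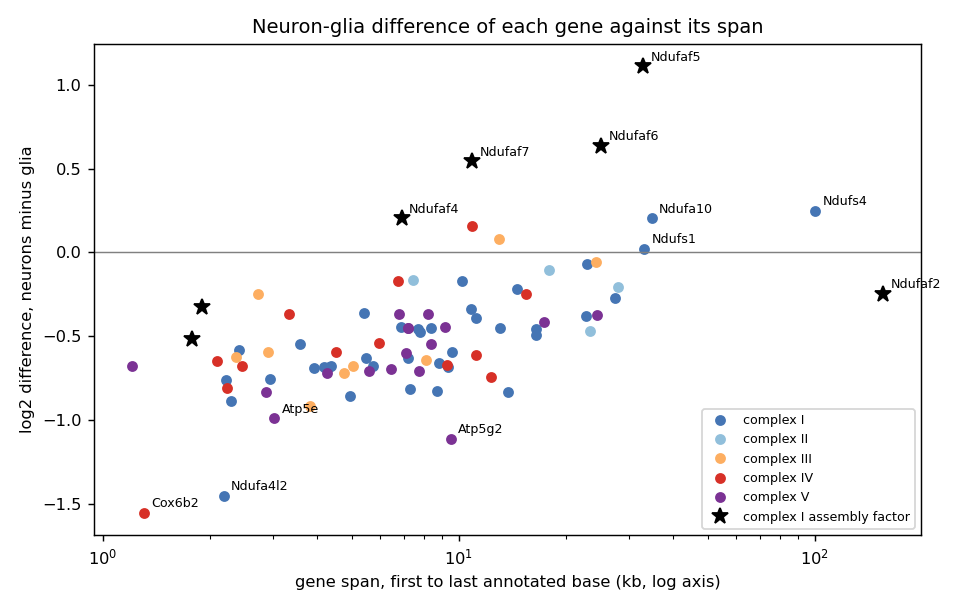
Log2 difference of neurons from glia for each of the 88 members tested (vertical axis) against the span of its gene in kb (log axis), 1 point per gene, coloured by complex, with stars for complex I assembly factors. Genes under 5 kb all lie below 0, and Ndufaf5 (33.0 kb) is the highest point at 1.11.

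Each class was next set against the mean of the other 12 classes in the same fit. The clusters had been made without the members among the genes used for clustering. Summed over members, cholinergic neurons were lowest (mean 3535 CPM over the 6 libraries, from 104 nuclei, described and not tested), followed by newly formed oligodendrocytes (4642), excitatory neurons (4959), inhibitory neurons (5226), unresolved neurons (5322, range 4060 to 8574, not tested against other classes), OPCs (6691), oligodendrocytes (8088), astrocytes (8250), microglia (9657), ependymal cells (9704), fibroblasts (10096), mural cells (10667), Schwann cells (10742), border macrophages (11544) and endothelial cells (16039). The ranges of neighbours in that order overlap: inhibitory neurons, for instance, ranged from 3713 to 9012 CPM, with replicate 1 highest in both genotypes. Clusters left unnamed for their mitochondrial share are outside this order. One, of 73 nuclei with the cholinergic markers Slc18a3, Slc5a7 and Prph among its leading genes, held 18580 CPM of members. Clusters of 191 and 94 nuclei with the astrocyte marker Gfap among theirs held 42542 and 36221 CPM. The part of leaving them out in the order was not tested. Low classes were often deep and high ones shallow, with medians of 3018 UMIs per nucleus in newly formed oligodendrocytes and 902.5 in endothelial cells. Within oligodendrocytes, a cluster at a median of 809 UMIs held 16078 CPM of members, and one at 1537 UMIs held 6232 CPM. Microglial clusters at 697 and 1434 UMIs held 15534 and 6540 CPM. Both shallower clusters came mostly from replicate 1. The part of depth in the order was not tested.

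**Figure D3:**
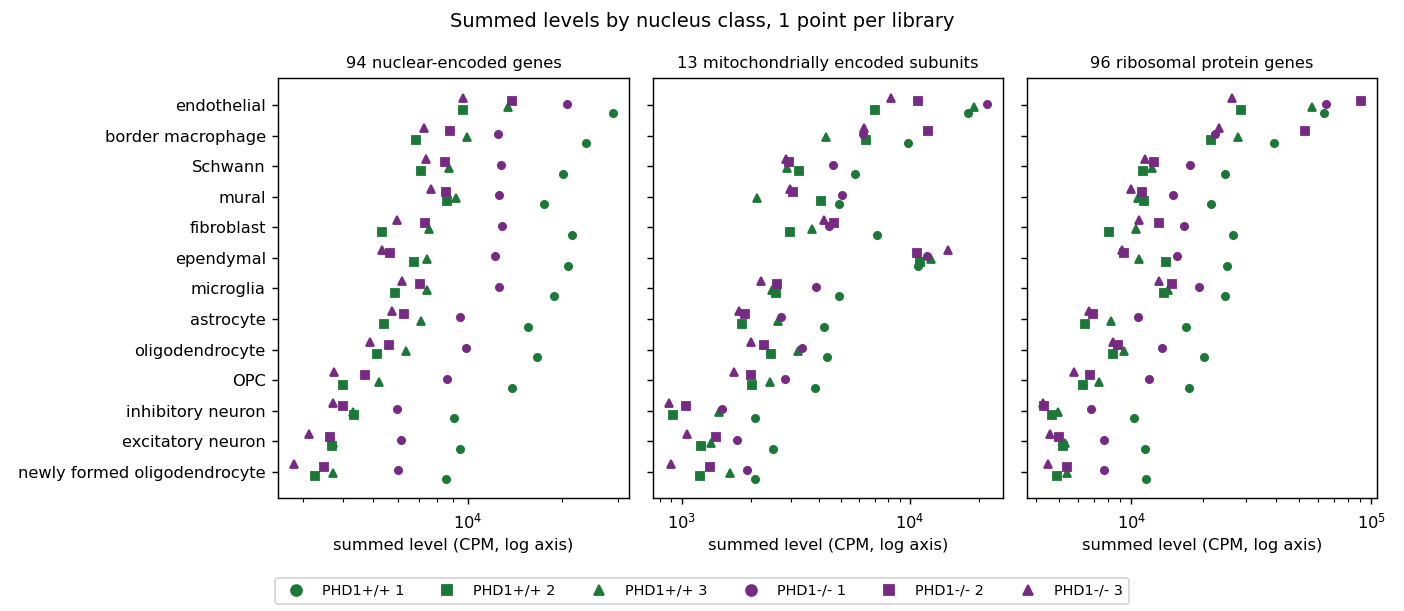
Summed levels (CPM, log axes) of the 94 members, 13 mitochondrially encoded subunits and 96 ribosomal protein genes in the 13 classes tested, with 1 point per library, coloured by genotype and shaped by replicate. Endothelial nuclei hold the highest mean member level (16039 CPM), newly formed oligodendrocytes and both neuron classes the lowest, and replicate 1 lies to the right in each class of the member panel.

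Among the named classes, endothelial nuclei had the highest share of member RNA. Of 88 members 73 were higher and 1 lower there (46.4% of all genes called, 23.4% higher and 22.9% lower; edgeR's quasi-likelihood test), with a median log2 difference of 0.92 against -0.15 for all genes. All 17 genes of complex V, 35 of 38 of complex I, 12 of 13 tested of complex IV and 7 of 9 of complex III were higher, and none of the 4 genes of complex II was. Ndufa7, an accessory subunit of the NADH-oxidising arm, stood at 486, 55.1 and 300 CPM in PHD1+/+ and 366, 250 and 243 CPM in PHD1-/- endothelial nuclei (1.92 log2 above the mean of the other classes, SE 0.14). The lowest value, of PHD1+/+ replicate 2, came from 28 nuclei with 36306 UMIs. That of PHD1-/- replicate 2 came from 11 nuclei with 16031 UMIs, so both rest on very few tags. Atp5j (1.44), Cox7a2l (1.57) and Uqcrb (1.55) were also among the 10 smallest p values. All 11 mitochondrially encoded subunits (median 1.99) and 83 of 91 ribosomal protein genes (2.01) were higher in the same nuclei, of which 205 and 117 of 428 came from replicate 1 of PHD1+/+ and PHD1-/-. With replicates 2 and 3 alone 30 members were called, and 29 were called among nuclei under 1% mitochondrial UMIs; the part of mitochondria-rich nuclei in the count was not tested.

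Newly formed oligodendrocytes lay at the other end. There 61 members were lower and 1 higher (39.4% of all genes called, 18.7% higher and 20.7% lower), with a median of -0.72 against -0.18 for all genes. Complex I had 30 of 38 lower, among them all 19 genes of the membrane arm, complex V 15 of 17 and complex IV 11 of 13 tested. Cox7a2 stood at 126, 25.8 and 54.6 CPM in PHD1+/+ and 77.3, 26.5 and 16.6 CPM in PHD1-/- (log2 difference -1.33, SE 0.20). In the oligodendrocyte class it was higher in every library, at 300, 72.7 and 103 CPM and 176, 90.2 and 74.0 CPM. Without the oligodendrocyte cluster that has Enpp6 among its leading genes, newly formed oligodendrocytes had the same counts, 61 lower and 1 higher. Atp5o (-1.49), Cox5b (-1.25), Ndufa5 (-1.22) and Ndufa13 (-1.17) were lower as well. The citric acid cycle genes were lower in 7 of 13 cases in these nuclei.

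Excitatory neurons had 73 members lower and 6 higher (67.5% of all genes called, 39.8% higher and 27.7% lower), and inhibitory neurons 67 lower and 8 higher (68.4% called, 40.2% higher and 28.2% lower). OPCs had 27 lower and none higher (37.3% called, 22.6% higher and 14.7% lower, median -0.28), led by Atp5f1 (-0.56), Ndufab1, the mitochondrial acyl carrier protein gene (-0.67), and Atp5h (-0.52). Schwann cells had 40 higher and none lower (33.1% called, 18.0% higher, median 0.36), among them 12 of 17 complex V genes. Sdhc, a membrane anchor of complex II, led there at 1.03 (SE 0.17), but its 6 values, 98.6, 150 and 0 CPM in PHD1+/+ and 110, 83.2 and 129 CPM in PHD1-/-, include 1 library, PHD1+/+ replicate 3 with 35 Schwann nuclei, with no UMI. In complex II 2 of 4 genes were higher in Schwann cells.

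Astrocytes showed a mixed pattern, with 14 members higher and 2 lower (45.7% of all genes called, 26.4% higher and 19.3% lower, median 0.02). Complex II had 3 of 4 higher and complex V 4 of 17. Ndufs1 stood at 84.0, 143 and 153 CPM in PHD1+/+ and 163, 110 and 138 CPM in PHD1-/- astrocytes and at 90.3, 99.3 and 99.2 CPM and 97.8, 98.8 and 98.3 CPM in inhibitory neurons. PHD1+/+ replicate 1 is the only library in which astrocytes were not above these neurons for Ndufs1, and the difference from the mean of the other classes was 0.71 (SE 0.11). Ndufaf4 (0.89), Ndufs3 (0.64), Ndufaf6 (0.74), Atp5b (0.45), Sdha (0.36), Atp5a1 (0.38), Sdhc (0.45) and Uqcrc2 (0.35) were higher too. Of 13 citric acid cycle genes 6 were higher and none lower, whereas 6 of 11 mitochondrially encoded subunits and 67 of 91 ribosomal protein genes were lower in astrocytes. Clusters with Gfap among their leading genes that were left unnamed for their mitochondrial share are not in this class.

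For oligodendrocytes and microglia the direction depended on the scaling. Oligodendrocytes had 44 members higher and 2 lower (61.4% of all genes called, 38.4% higher and 23.0% lower, median 0.22, all genes 0.10), but DESeq2 with its own size factors gave 4 higher and 9 lower (median -0.00, all genes -0.13). Microglia had 28 higher and none lower (58.0% called, 35.0% higher and 22.9% lower, median 0.21, all genes 0.09), against 2 higher and 6 lower with DESeq2 (median -0.02, all genes -0.16). The median of all genes moved by about as much as that of the members. Without the cluster that has Enpp6 among its leading genes, edgeR called 63 members higher and 1 lower in oligodendrocytes (median 0.36). Ndufaf2 (0.75, SE 0.10) and Ndufs1 (0.57, SE 0.08) led in oligodendrocytes and Ndufb4 (0.55, SE 0.11) in microglia. Ependymal cells had 12 members higher and 1 lower (20.3% of genes higher and 16.5% lower), and border macrophages had 3 and 1 (17.1% and 17.0%). Fibroblasts had 2 and 1 (21.0% and 11.2%) and mural cells 2 and 0 (9.15% and 5.57%). All 4 of these classes hold under 1000 nuclei. So do OPCs (991), Schwann cells (949), endothelial cells (428) and newly formed oligodendrocytes (295), which had more members called.

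Paralogues that can replace a common subunit differed in share between classes. Mural cells are the pericytes and smooth muscle of vessels, and the mural class here is 1 cluster with Vtn, Abcc9 and Pdgfrb among its leading genes. In that class Ndufa4l2 made up 45.6% ± 17.4 (SD, n = 6 libraries, range 23.6 to 74.3) of the tags of the pair Ndufa4 and Ndufa4l2, or 76 UMIs beside 108. In endothelial nuclei the share was 13.6% ± 14.1 (SD, n = 6), and in microglia, oligodendrocytes, neurons and astrocytes the mean share was below 1%. Ndufa4l2 was 7.25 log2 above the mean of the other classes in mural cells (SE 0.46) and 6.29 in endothelial cells (SE 0.44), both by edgeR's quasi-likelihood test with adjusted p values of 2.1e-22 and 5.77e-21; the other classes hold few or no Ndufa4l2 UMIs, so these sizes depend on how the fit treats counts near 0. Ndufa4l2 is known as a target of hypoxia-inducible factors that lowers complex I activity.

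Cox4i2, the paralogue of Cox4i1 known from lung and hypoxic cells, followed Ndufa4l2. Its share of the pair was 16.7% ± 14.6 (SD, n = 6, range 5.0 to 40.9, 29 UMIs beside 168) in mural cells, 4.39% ± 3.67 (SD, n = 6) in endothelial cells and below 1% in neurons, oligodendrocytes, astrocytes and microglia. In mural cells 22.7% of nuclei (58 of 255) had an Ndufa4l2 UMI and 10.98% a Cox4i2 UMI, at a median of 888 UMIs per nucleus. In oligodendrocytes, at a median of 1403.5 UMIs, 0.184% and 0.161% of nuclei did. Mural markers moved with Ndufa4l2 inside the endothelial class: of its 2 clusters, the one of 109 nuclei had 177 CPM of Ndufa4l2 with 1635 CPM of Rgs5 and 226 CPM of Pdgfrb, and the one of 319 nuclei had 122 CPM with 440 CPM and 59.6 CPM. In the mural cluster Ndufa4l2 stood at 218 CPM, Rgs5 at 877 CPM and Pdgfrb at 1109 CPM, and the part of mural RNA in the endothelial values was not tested. A cluster of 44 nuclei with the mural markers Acta2 and Myh11 among its leading genes was left unnamed for its mitochondrial share. It held 226 CPM of Ndufa4l2, 79.7 CPM of Cox4i2 and 2949 CPM of Acta2, against 66.1 CPM of Acta2 in the mural cluster. Among nuclei under 1% mitochondrial UMIs the endothelial call for Ndufa4l2 was lost (2.89, adjusted p = 0.0673 by edgeR's quasi-likelihood test).

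Cox7b2 made up its largest shares in astrocytes, neurons and OPCs. Known mainly from testis, it gave 24.2% ± 11.95 (SD, n = 6, range 7.35 to 37.6) of the tags of the pair Cox7b and Cox7b2 in astrocytes, or 144 UMIs beside 383. The share was 13.4% ± 4.67 in excitatory and 10.97% ± 4.47 in inhibitory neurons, 8.53% ± 6.48 in OPCs (21 UMIs beside 198), 0.70% ± 0.44 in oligodendrocytes (16 UMIs beside 2317; SD, n = 6 for each). It lay lower in replicate 1 than in the other 2 replicates of each genotype in astrocytes and both neuron classes, with 7.79% and 7.14% in excitatory neurons of replicate 1 against 14.7% to 17.2% in the others. In level, astrocytes held 41.9 ± 15.1 CPM of Cox7b2 and excitatory neurons 12.3 ± 1.75 CPM (SD, n = 6). Cox7b2 did not pass the filter on low counts in the fit over classes and has no test there. Its gene spans 105 kb. The genes most like it over 13 classes, by Pearson's r of log2 CPM among 16698 genes, were Caskin1 (0.949), 4930570B17Rik (0.943), Gm37679 (0.943), Dclk1 (0.941) and Frmpd1 (0.934). For Ndufa4l2 they included Rgs5 (0.946), Hcfc1 (0.943), Higd1b (0.938) and Abcc9 (0.933).

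**Figure D4:**
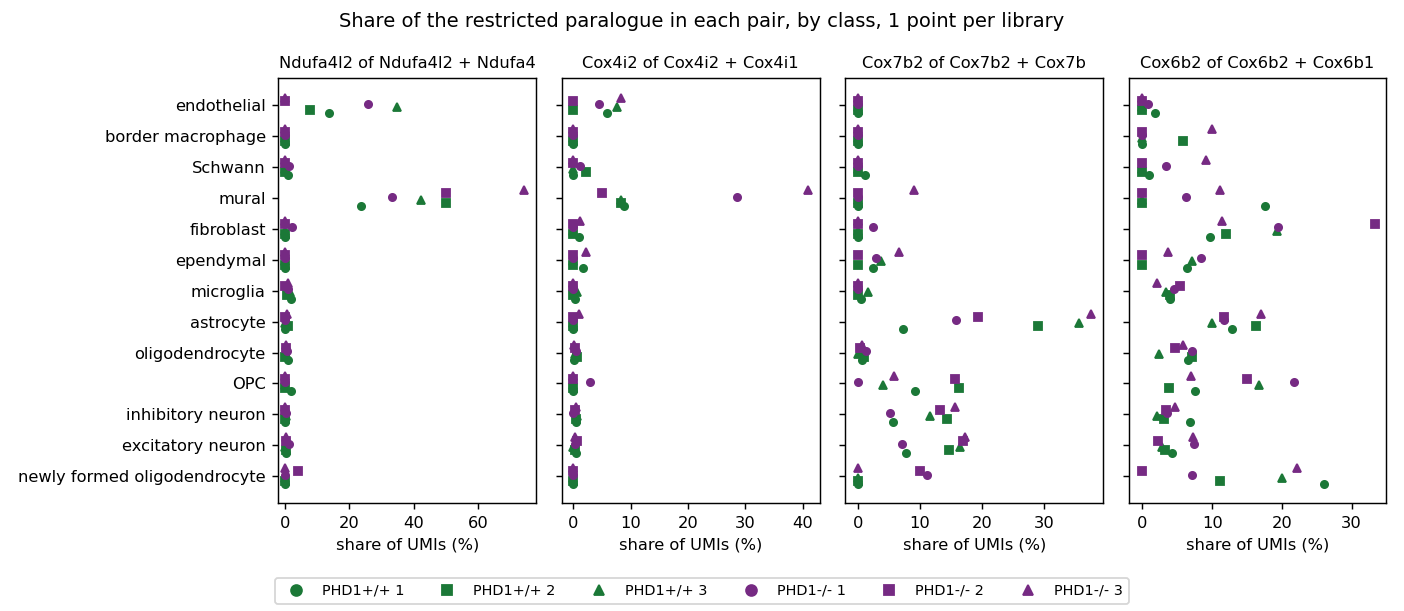
Share (%) of the UMIs of a pair that belonged to its restricted paralogue in each of 13 classes, with 1 point per library, coloured by genotype and shaped by replicate. Ndufa4l2 is high in mural nuclei (23.6 to 74.3%), Cox7b2 in astrocytes (7.35 to 37.6%), and points of small classes rest on few UMIs.

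Cox6b2, another paralogue known from testis, made up 17.6% ± 8.78 (SD, n = 6) of its pair with Cox6b1 in fibroblasts, 13.3% ± 2.78 in astrocytes, 14.4% ± 10.0 in newly formed oligodendrocytes (13 UMIs beside 74) and 11.96% ± 6.89 in OPCs, against 3.95% ± 1.65 in inhibitory neurons. It was 1.82 log2 above the other classes in fibroblasts (SE 0.33) and 1.27 in astrocytes (SE 0.30). The genes most like Cox6b2 were Bmp1 (0.860), Arfip2 (0.852), Rgma (0.848), Prr14 (0.835) and 2700081O15Rik (0.831). The heart and muscle forms were near 0: Cox8b had 16, 2 and 2 UMIs with PHD1 intact and 16, 3 and 7 without it, and the means of Cox6a2 and Cox7a1 were below those of their partners Cox6a1 and Cox7a2 in every class tested. Microglia had the highest share of Cox6a2, 7.21% ± 5.13 (SD, n = 6; 24 UMIs beside 439). Of the 3 genes for the same c ring protein, Atp5g2 made up 28.2% ± 6.70 of the sum of Atp5g1 and Atp5g2 in inhibitory neurons, 33.9% ± 8.12 in excitatory neurons and 44.7% ± 10.3 in microglia (SD, n = 6 for each), and it was lower in replicate 1 throughout these classes.

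Loss of PHD1 changed no member past the threshold in all nuclei together. Of 92 members tested 0 were called, as were 0 of all 19203 genes (0%), by edgeR's quasi-likelihood test and by DESeq2; at an unadjusted p under 0.05 there were 0 members and 99 genes. Of the 92, 87 had a negative difference (PHD1-/- below PHD1+/+), with a median log2 difference of -0.60 against -0.01 for all genes. The median was -0.60 in complex I, -0.23 in complex II, -0.60 in complex III, -0.65 in complex IV, -0.63 in complex V and -0.11 for the assembly factors. Without PHD1+/+ replicate 1, which leaves its high counterpart PHD1-/- replicate 1 unpaired, the median was 0.30, and with replicates 2 and 3 alone it was -0.11. With the replicate number as a block 0 members and 0 genes were called (0%), 86 of 92 members were negative (median -0.40), and 40 members and 1192 of the 19203 genes had an unadjusted p under 0.05. Among 90 members with at least 10 UMIs in each library, the median log2 ratio of PHD1-/- to PHD1+/+ was -0.88 between the replicate 1 libraries, -0.03 between those of replicate 2 and -0.27 between those of replicate 3, and 46 were lower in all 3. Genes outside the members were not counted in this way. Mitochondrially encoded subunits (12 of 13 negative, median -0.47) and ribosomal protein genes (87 of 94 negative, median -0.48) went the same way, while citric acid cycle genes (-0.13) and regulators of mitochondrial gene expression (0.06) lay nearer to 0. Sums over all nuclei mix the make-up of the tissue with the level per nucleus, and fewer cells of a type and less RNA per cell cannot be told apart in them.

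The 5 members with the smallest p values were 4 genes of the ATP synthase and Ndufa4. Atp5f1, part of the stalk that holds the ATP synthase head, stood at 154, 92.6 and 94.7 CPM in PHD1+/+ and at 91.3, 84.4 and 78.2 CPM in PHD1-/- (log2 difference -0.43, SE 0.24, unadjusted p = 0.115 by edgeR's quasi-likelihood test). It was the only member of 92 whose PHD1-/- values all lay below the PHD1+/+ ones; 1.96% of 19051 genes did so, and no member lay above (1.95% of genes). Atp5a1, the alpha subunit of the head, stood at 171, 109 and 117 CPM and at 115, 103 and 102 CPM, so replicate 1 of PHD1-/- lay among the PHD1+/+ values. Ndufa4 stood at 524, 140 and 136 CPM and at 219, 124 and 91.8 CPM (-0.89, SE 0.61). Atp5b, the catalytic beta subunit, stood at 263, 100 and 105 CPM and at 144, 84.4 and 78.5 CPM (-0.62, SE 0.44), and Atp5g3 differed by -0.63 (SE 0.40).

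Within classes, the fit without pairing called 0 members in each of the 13 classes tested, as it called 0 genes of any kind (0%); DESeq2 called 0 members too. At an unadjusted p under 0.05 edgeR's quasi-likelihood test gave 2 members in Schwann cells (Atp5d and Atp5b), 1 in ependymal cells (Atp5b) and 1 in inhibitory neurons (Atp5g3), all lower in PHD1-/-. Within classes, the share of all genes at that unadjusted threshold is not given here. Libraries of the same replicate number deviated together from their group means (correlations of 0.825, 0.634 and 0.53). Replicates 2 and 3 of opposite genotypes did so too (0.491 and 0.414), so this sets replicate 1 apart and does not establish 3 pairs. With the replicate number as a block 5 members were called in inhibitory neurons and 2 in ependymal cells. The 5 were all lower in PHD1-/-, where 39 of 14950 genes (0.261%) were called, 38 of them lower (0.254%).

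In inhibitory neurons Ndufa4 stood at 279, 143 and 104 CPM in PHD1+/+ and at 156, 107 and 66.7 CPM in PHD1-/-, lower in each of the 3 pairs (blocked log2 difference -0.60, SE 0.09, adjusted p = 0.0133 by edgeR's quasi-likelihood test, against 1.0 without the block). Atp5b stood at 150, 106 and 93.7 CPM and at 102, 80.7 and 66.4 CPM (-0.46, SE 0.08, adjusted p = 0.0302 by edgeR). Atp5h, of the stalk of the ATP synthase, stood at 148, 66.5 and 74.9 CPM and at 92.8, 52.4 and 49.9 CPM (-0.50, SE 0.09, adjusted p = 0.0336 by edgeR). All 5 members fell in each pair, although the groups overlap once the pairs are set aside.

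Cox4i1, the regulatory subunit of complex IV, stood at 427, 179 and 163 CPM and at 255, 147 and 122 CPM in the same neurons (-0.45, SE 0.08, adjusted p = 0.0336 by edgeR with the block). Ndufa13, of the membrane arm of complex I, stood at 164, 106 and 78.7 CPM and at 114, 76.6 and 63.4 CPM (-0.42, SE 0.08, adjusted p = 0.0460 by edgeR with the block). Around these 5, 80 of the 88 members tested had negative values in the blocked fit (median -0.26, all genes -0.00). In that fit 45 members had an unadjusted p under 0.05, with no share of all genes at that threshold given here. Ribosomal protein genes showed a like shift, 84 of 93 negative with a median of -0.28 and 1 call, and 12 of 13 mitochondrially encoded subunits were negative (median -0.27). With replicates 2 and 3 alone and no block, the 5 values ranged from -0.49 for Ndufa4 to -0.33 for Cox4i1, with adjusted p values by edgeR from 0.571 to 0.704. Without PHD1+/+ replicate 1 and with no block, Cox4i1 differed by 0.01 and the other 4 by -0.16 to -0.29.

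The make-up of the inhibitory class differed between libraries. A cluster of 212 nuclei with 7926 CPM of members drew 117, 2 and 4 nuclei from PHD1+/+ and 88, 1 and 0 from PHD1-/-, and a cluster of 296 nuclei with 5800 CPM drew 116, 31 and 25 and 63, 30 and 31. The cluster with the most nuclei (1524, at 4471 CPM) drew 1, 387 and 355 and 28, 425 and 328. Without the 2 clusters held mostly by replicate 1, the block again called these 5 members, with values from -0.59 for Ndufa4 (adjusted p = 0.0178 by edgeR) to -0.40 for Ndufa13 (adjusted p = 0.0491 by edgeR), and the median of the 88 members was -0.24. The part of the remaining differences in make-up was not tested.

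**Figure D5:**
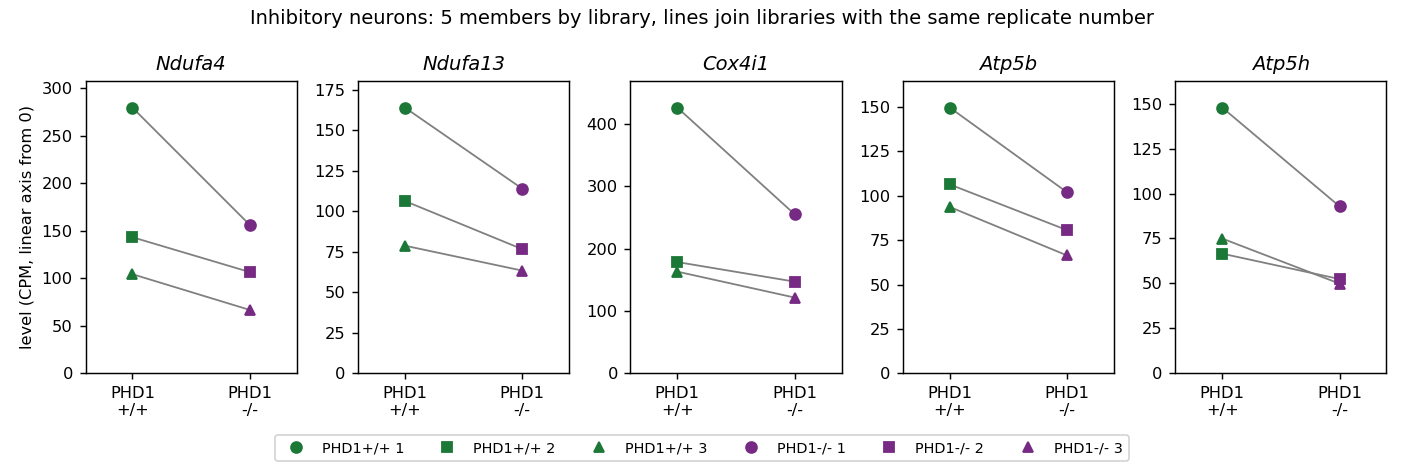
Level (CPM, linear axes from 0) in inhibitory neurons of the 5 members called with the replicate block, with 1 point per library and lines joining libraries of the same replicate number. Each line descends from PHD1+/+ to PHD1-/-, as from 279 to 156 CPM in pair 1 for Ndufa4.

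Unresolved neurons were tested for genotype too, a comparison added after the data were seen. Without the block 0 of 87 members and 0 of 14979 genes were called (0%), and DESeq2 called 0 members; before adjustment 4 members were under 0.05 by edgeR and 5 by DESeq2. With the block 12 members were called, all lower in PHD1-/-, where 0.794% of genes were called and 0.781% were lower. They were 6 genes of complex I (Ndufa1, Ndufa4, Ndufb6, Ndufb8, Ndufb11 and Ndufc2), Uqcr10 of complex III, Cox4i1 and Cox8a of complex IV, and Atp5b, Atp5e and Atp5h of complex V. Ndufa4 stood at 244, 124 and 119 CPM in PHD1+/+ and at 121, 96.6 and 75.4 CPM in PHD1-/- unresolved neurons (blocked log2 difference -0.67, SE 0.10, adjusted p = 0.0112 by edgeR's quasi-likelihood test). Ndufa1, a membrane arm subunit, stood at 46.9, 29.6 and 27.3 CPM and at 28.1, 17.7 and 19.4 CPM (-0.66, SE 0.12, adjusted p = 0.0160 by edgeR). Both fell in each pair, with PHD1-/- replicate 1 among the PHD1+/+ values. Ribosomal protein genes were lower as well, in 38 of 92 cases (median -0.41, against -0.33 for the members). One cluster of this class, of 496 nuclei with 16447 CPM of members, was led by skeletal muscle genes such as Myh4, Ttn and Acta1 and drew 249, 40 and 62 nuclei from PHD1+/+ and 45, 28 and 72 from PHD1-/-. Without it the block called 10 members, Ndufa4 among them (-0.62, adjusted p = 0.00481 by edgeR). Other uneven clusters stayed in. One of 1333 nuclei with 7565 CPM of members drew 900, 1 and 7 nuclei from PHD1+/+ and 414, 7 and 4 from PHD1-/-. Another of 393 nuclei with 5442 CPM drew 15, 17 and 6 and 333, 6 and 16. The part of these differences in make-up in the calls was not tested. With PHD1+/+ replicate 1 left out and no block, Uqcr10 differed by 0.17.

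In ependymal cells the block gave Atp5b (-1.40, SE 0.33, adjusted p = 0.0277 by edgeR) and Cox8a, a small subunit of complex IV (-1.02, SE 0.25, adjusted p = 0.0352 by edgeR), where 10 of 3006 genes (0.333%) were called, 9 of them lower (0.299%). These rest on few tags: the UMIs of Atp5b were 35, 16 and 43 with PHD1 intact against 20, 2 and 14 without it, and PHD1-/- replicate 2 held 15 ependymal nuclei. Without PHD1+/+ replicate 1 and with no block, Cox8a differed by 0.09.

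The pairs were unequal in size and, outside neurons, in direction. Among 86 members with at least 10 UMIs in each library of inhibitory neurons, the median log2 ratio of PHD1-/- to PHD1+/+ was -0.66 in pair 1, -0.12 in pair 2 and -0.19 in pair 3, and 56 were lower in all 3. In excitatory neurons (87 members) the medians were -0.62, -0.00 and -0.30, with 37 lower in all 3, and in unresolved neurons (87) they were -0.63, -0.08 and -0.29, with 52. In oligodendrocytes (86 members) they were -0.75, 0.12 and -0.41 with 17 lower in all 3, in astrocytes (71) -0.76, 0.20 and -0.32 with 13, and in microglia (79) -0.53, 0.28 and -0.29 with 10. Pair 1 was thus the most negative in each of these classes, and pair 2 lay near 0 or above it. These pair counts were made for members only, so no share over all genes stands beside them. The blocked fit called no member in excitatory neurons (0.0615% of genes called) or in oligodendrocytes (0.00792%). It also called none in oligodendrocytes without the cluster that has Enpp6 among its leading genes. At an unadjusted p under 0.05 these 3 fits had 47, 42 and 49 members. The shares of all genes above are at the adjusted threshold, so they cannot be set against these 3 counts.

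Across the 13 classes, 5 members had a negative unblocked difference in each: Cox4i1, Cox7c and Cox8a of complex IV, Ndufa4, and Uqcrh of complex III. Few members passed the filter on low counts in all 13. The others that did were Cox6c (12 negative), Atp5b (11) and Atp5a1 (10). Members tested in fewer classes were often negative in each of theirs, such as Atp5h and Atp5j (12 of 12). The share of all genes that did so was not counted. With replicates 2 and 3 alone, Ndufa4 was negative in 12 of 13 classes, Cox8a in 9 of 13, Cox4i1 in 8 of 13, Uqcrh in 6 of 12 and Cox7c in 5 of 12. Classes share the libraries, so these counts are not independent.

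Whether the genotype difference itself differed between neurons and oligodendrocytes was tested as an interaction. Of 89 members 0 were called, as were 0 of 15386 genes (0%), by edgeR's quasi-likelihood test; 0 members and 313 genes had an unadjusted p under 0.05. The median member interaction was 0.01 on the log2 scale. With unresolved neurons counted as neurons, and without the oligodendrocyte cluster that has Enpp6 among its leading genes, 0 members were called again, with 0 and 1 at an unadjusted p under 0.05. Among the smallest p values were those of Ndufv1, which binds NADH (-0.28, SE 0.15, unadjusted p = 0.0954 by edgeR), Uqcrc1 (0.28, SE 0.16), Ndufaf4 (-0.30, SE 0.17) and Sdha (0.19, SE 0.12).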

How the data were processed

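Nuclei of 6 libraries were sequenced with 10x Genomics 3′ chemistry, and the deposited matrices hold raw UMI counts for each barcode. Per the file headers they come from Cell Ranger version 5.0.1, while version 5.0.2 stands in the submitters' processing notes, together with mm10 and Scanpy 1.8.1. The treatment of intronic reads, and of reads that match several near-identical genes, was not given in the sources used here. The libraries also list 4 antibody tag features, which held 0 UMIs and were not used.

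Barcodes with at least 500 UMIs and 300 genes and at most 5% mitochondrial UMIs were kept, and predicted doublets (0.8% per 1000 nuclei) were removed. Nuclei were clustered with Leiden (leidenalg 0.10.2, resolution 1.0, 30 components, 15 neighbours, 2000 variable genes) without the members. Rules that assigned clusters to classes were settled after the clusters were seen: at least 3 markers 2-fold above the mean of the clusters, and for neurons an excitatory ratio of 2 or an inhibitory ratio of 8 between the marker sums. Neurons and mitochondria-rich clusters were reclustered, and those with a median of 1% or more mitochondrial UMIs were left unnamed. An oligodendrocyte cluster with a marker of newly formed oligodendrocytes, and none of its own class, among its leading genes was named by an exception to these rules, from its marker score. UMIs were summed per library and class. The 13 named classes with at least 10 nuclei in each library were tested; unresolved neurons reach that number and were first left out with the unnamed nuclei, so their tests, those without single clusters, and the unresolved neurons counted as neurons were added after the data were seen. Sums were tested on all genes with edgeR 4.0.16 (R 4.3.3), by its quasi-likelihood test after filterByExpr and TMM scaling; adjusted p values are Benjamini-Hochberg's, with a threshold of 0.05, and the standard error is the log2 difference over the square root of F. DESeq2 1.42.0 was an alternative, beside no filter, the replicate block, each library left out, replicates 2 and 3 alone, and nuclei under 1% mitochondrial UMIs. Fits were tried on simulated counts with the same expected gene shares in every library apart from set genotype changes. That setting holds no replicate effect, so it cannot show how the fits behave with replicate 1 as it stands here. Ratios within pairs used members with at least 10 UMIs in each library, and counts of groups that do not overlap used genes with at least 60 UMIs in all. Members named are those past the threshold, at most the 10 with the smallest p, or the 5 smallest unadjusted p where none passed, beside the highest and lowest of each complex and the paralogue pairs; other members named beside them were chosen after their values were seen. Some genes that this rule names are not reported here. The members and the gene lists were chosen with earlier results of these data known. The promoter motifs were shortened after counts of longer forms had been seen.

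Per the labels the animals were 3 pairs of littermates, with no statement that a replicate number stands for a pair. Deviations from the group means over 19203 genes correlated at 0.825, 0.634 and 0.53 between libraries of the same number, and at 0.491 and 0.414 between replicates 2 and 3 of opposite genotypes. The numbers were taken to pair the libraries because each same-number value was above 0.1. The values between replicates 2 and 3 of opposite genotypes were above that mark too. Deviations within a group sum to 0, so an outlying replicate 1 by itself makes replicates 2 and 3 deviate together. The check therefore sets replicate 1 apart and separates replicates 2 and 3 little. The 6 libraries held 12693827 to 31346577 UMIs in kept nuclei; a count per library carries counting error beside the spread between animals.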

Additional observations from a re-analysis of the deposited data

Results flagged for a closer look

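The 1053 nuclei in clusters rich in mitochondrial RNA, which were named after no cell type and entered no comparison between classes, held the most respiratory chain RNA. Their summed member level averaged 20942 CPM over the 6 libraries (SD 11925, range 9960 to 38106), against 6916 CPM in all nuclei. PHD1+/+ replicate 1 gave 816 of them and PHD1-/- replicate 1 gave 173, and each of the other 4 libraries gave 21 or fewer. What these nuclei are was not tested.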

How the results depend on the processing

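Neurons against glia gave 74 to 78 calls with any 1 library left out, against 80. The genotype fits without the block gave 0 member calls in each class, unresolved neurons included, in all nuclei and in the interaction under every alternative run. The replicate block gave 5 calls in inhibitory neurons (also 5 without the clusters held mostly by replicate 1), 2 in ependymal cells and 12 in unresolved neurons (10 without the cluster led by muscle genes) and changed no other call of a member count. Counts of members called for a class against the others moved by over 1.5 times as follows. With DESeq2 there were 11 in border macrophages, 21 in ependymal cells, 8 in microglia, 8 in mural cells and 13 in oligodendrocytes. With no filter on low counts there were 13 in OPCs, 13 in Schwann cells, 1 in ependymal cells and 16 in microglia. With replicates 2 and 3 alone there were 17 in OPCs, 21 in Schwann cells, 7 in border macrophages, 30 in endothelial cells, 2 in ependymal cells and 23 in oligodendrocytes. Among nuclei under 1% mitochondrial UMIs there were 9 in OPCs, 1 in border macrophages, 29 in endothelial cells, 2 in ependymal cells and 1 in mural cells. The causes were not tested. The last 2 settings also hold fewer libraries or nuclei.

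With 1 library left out, the counts ranged from 12 to 22 in OPCs (12 without PHD1-/- replicate 1, and 17 without PHD1+/+ replicate 3 or PHD1-/- replicate 3), 22 to 42 in Schwann cells (22 without PHD1-/- replicate 3), 10 to 17 in astrocytes (10 without PHD1-/- replicate 2 or 3), 2 to 6 in border macrophages (2 without PHD1+/+ replicate 2 or PHD1-/- replicate 3), 65 to 75 in endothelial cells, 4 to 19 in ependymal cells (4 without PHD1+/+ replicate 1), 75 to 79 in excitatory neurons, 3 to 6 in fibroblasts (6 without PHD1-/- replicate 3, and 5 without PHD1+/+ replicate 2 or PHD1-/- replicate 1), 67 to 76 in inhibitory neurons, 9 to 20 in microglia (each library except PHD1+/+ replicate 3 moved the count by over 1.5 times, to 9 without PHD1-/- replicate 1), 2 to 3 in mural cells, 45 to 59 in newly formed oligodendrocytes and 26 to 41 in oligodendrocytes (26 without PHD1-/- replicate 1). The median genotype difference of the members in all nuclei ranged from -1.04 to 0.30, and it turned positive only without PHD1+/+ replicate 1. The same library turned 4 genotype differences fitted with no block: Ndufa4 in all nuclei ranged from -1.30 to 0.066, Cox8a in ependymal cells from -1.54 to 0.087, Cox4i1 in inhibitory neurons from -0.90 to 0.0072 and Uqcr10 in unresolved neurons from -1.16 to 0.174. Many members have near-identical processed pseudogenes, and no source used here says how shared reads were treated, so single-member levels are uncertain to that extent.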

Other observations

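In astrocytes, where 26.4% of all genes were called higher and 19.3% lower than the mean of the other classes, 14 of 88 members were higher (median log2 difference 0.02). There 6 of 11 mitochondrially encoded subunits were lower than the mean of the other classes (median log2 difference -0.51), while 4 of 7 carrier and electron entry genes (0.37) and 8 of 25 assembly factors outside the rule (0.12) were higher by edgeR's quasi-likelihood test. The difference between these lists was not tested, nor was the part of the mitochondria-rich clusters left out of this class. In newly formed oligodendrocytes all 11 mitochondrially encoded subunits (median -1.23) and 72 of 91 ribosomal protein genes (-0.91) were lower beside the members.

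Ependymal nuclei had all 11 mitochondrially encoded subunits higher (median 1.87) with 12 of 88 members higher. In the fit of genotype with the replicate block, none of the 11 mitochondrially encoded subunits was negative in ependymal cells (median 0.14), while 45 of 46 members were (-0.75). The difference between these 2 lists was not tested.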
